A study of Gallus gallus with 4 samples.

Results

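The ENS retroelements are chicken endogenous retroviruses, remnants of viral genomes that are carried and inherited in the host DNA. They are represented here by 4 of the 11336 repeat names counted, chosen by name: ENS1-LTR, ENS1-int, ENS1B-LTR and ENS3-int. All 4 passed the filter on low counts. They belong to the 63 retroviral names, which are those ending in -int or containing LTR, and the other 59 names serve for comparison.

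RNA was sequenced from the cranial neural folds of the chick (Gallus gallus), the raised edges of the head neural plate that give rise to the cranial neural crest. Embryos incubated at 37 °C for about 18 h to stage HH4 (gastrula) were electroporated with a Cas9 construct and guide constructs, and were dissected about 14 h later at an early stage HH9 (HH9-). In the knockout group the guides targeted Chiwi, a chicken PIWI protein, on the right side of the embryo. In the control group they were control guides on the left side, so that guide and side cannot be told apart. Each group has 2 libraries of folds pooled from several embryos. The main tests took the libraries as unpaired, and an alternative compared libraries with the same number. Both groups received Cas9 and were electroporated, and electroporation reaches only part of the cells of a fold. The labels do not say that libraries with the same number share embryos, nor that the pools of a group came from separate embryos, so p-values measure only the spread between these pools.

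A retroviral insertion consists of an internal part, which holds the protein-coding sequence, between long terminal repeats (LTRs), which carry the promoter and the end of transcription. The ENS-1 family encodes ERNI, a protein switched on early in the chick epiblast in response to neural-inducing signals, which is known to delay the onset of SOX2, a transcription factor of the neural plate. PIWI proteins are known in the germ line of animals for silencing transposons and endogenous retroviruses with the help of small piRNAs. The comparison asked whether RNA of these elements differs when Chiwi is targeted.

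Each library had between 38783357 and 40352750 reads counted in genes and between 2707324 and 2942281 counted in repeats. ENS names took 53646 to 78676 reads per library, so that counting error alone was small: at most 0.672% for ENS1-LTR, 0.655% for ENS1-int, 1.34% for ENS1B-LTR and 1.94% for ENS3-int. Levels are given as CPM, the reads of a repeat name per 1000000 reads of the same library's gene table. None of these values is per length, because no length of the counted copies was used here, so an order of levels is an order of reads and not of molecules.

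ENS1 LTR and internal sequences were the most abundant retroviral reads of the neural folds, in knockout and control tissue alike. ENS1-LTR, the terminal repeat that carries the family's promoter, stood at 877 and 714 CPM in knockout replicates 1 and 2 and at 733 and 552 CPM in control replicates 1 and 2. ENS1-int, the internal part, stood at 840 and 688 CPM in knockout and at 715 and 581 CPM in control tissue in the same order. Knockout replicate 1 was highest and control replicate 2 lowest for both names, and control replicate 1 lay above knockout replicate 2, so the groups overlapped.

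ENS1B-LTR, by its name a variant of the same terminal repeat, was read less. It stood at 212 and 167 CPM in the knockout libraries and at 196 and 139 CPM in the control libraries. ENS3-int, the internal part of a related element, was the least abundant of the 4, at 99.4 and 77.3 CPM in knockout and 94.1 and 66.2 CPM in control tissue. All 4 names put the libraries in the same order, and the highest library exceeded the lowest by 1.44-fold for ENS1-int to 1.59-fold for ENS1-LTR. The 4 names share sequence and may lie in the same transcripts, so they are not independent observations.

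**Figure D1:**
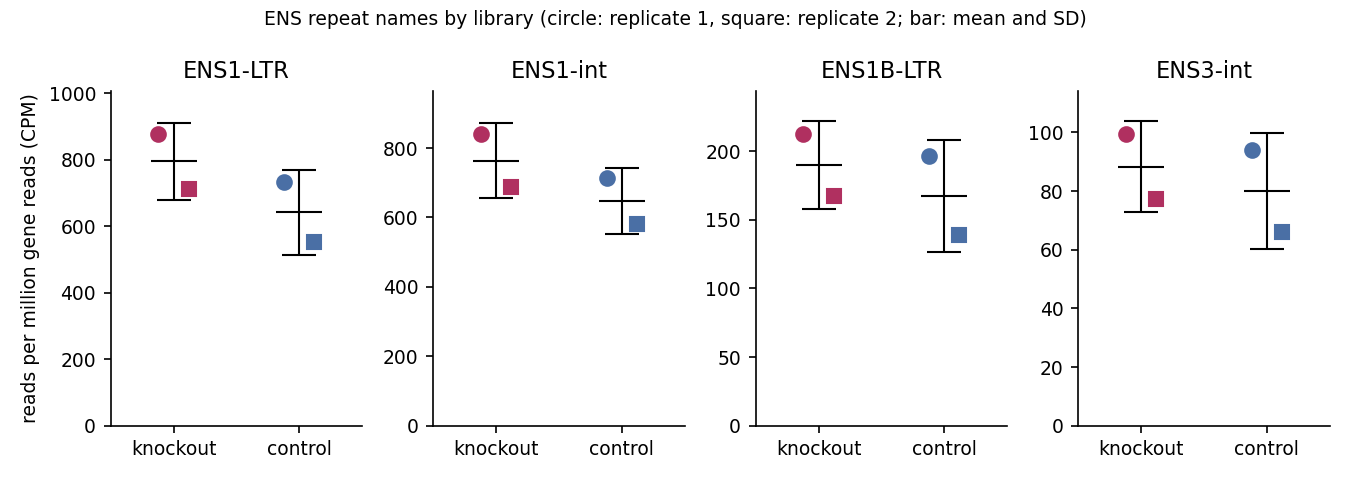
Level of each ENS name in CPM (vertical axes from 0) in the 2 knockout and 2 control libraries; circles are replicate 1, squares replicate 2, and bars give the mean and SD of each group. Replicate 1 lies above replicate 2 in both groups for all 4 names, and control replicate 1 lies above knockout replicate 2.

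In the order of mean reads over the 4 libraries, ENS1-LTR was first of the 63 retroviral names at 719 CPM and ENS1-int was second at 706 CPM. These 2 did not differ beyond their spread: ENS1-LTR was the higher in 3 libraries, and ENS1-int was the higher in control replicate 2. The next name, GGERV20_I-int, the internal part of another chicken retrovirus family, had a mean of 482 CPM. Its range of 459 to 494 CPM lay below every value of both ENS1 names. ENS1B-LTR was seventh at 179 CPM. It was not separated from the names just above it, GGLTR5B at 188 CPM, GGLTR7-int at 185 CPM and GGERVL-C-int at 184 CPM, and it was above GGERVL-C-int in 2 of 4 libraries. It did exceed the name below it, GGLTR5A at 113 CPM, in all 4 libraries without overlap. ENS3-int was in rank 18 at 84.2 CPM, between GGLTR7A at 87.8 CPM and GGLTR8A at 78.6 CPM, and its range overlapped both.

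Ranks moved between libraries mostly for the less abundant members. ENS1B-LTR was in rank 4 in knockout replicate 1, rank 5 in control replicate 1 and rank 7 in both other libraries. ENS3-int was in rank 11 in knockout replicate 1, 17 in control replicate 1, 19 in knockout replicate 2 and 20 in control replicate 2. Among the 316 names that are neither simple nor low-complexity repeats, ENS1-LTR ranked from 6 to 11 and ENS1-int from 7 to 9.

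**Figure D2:**
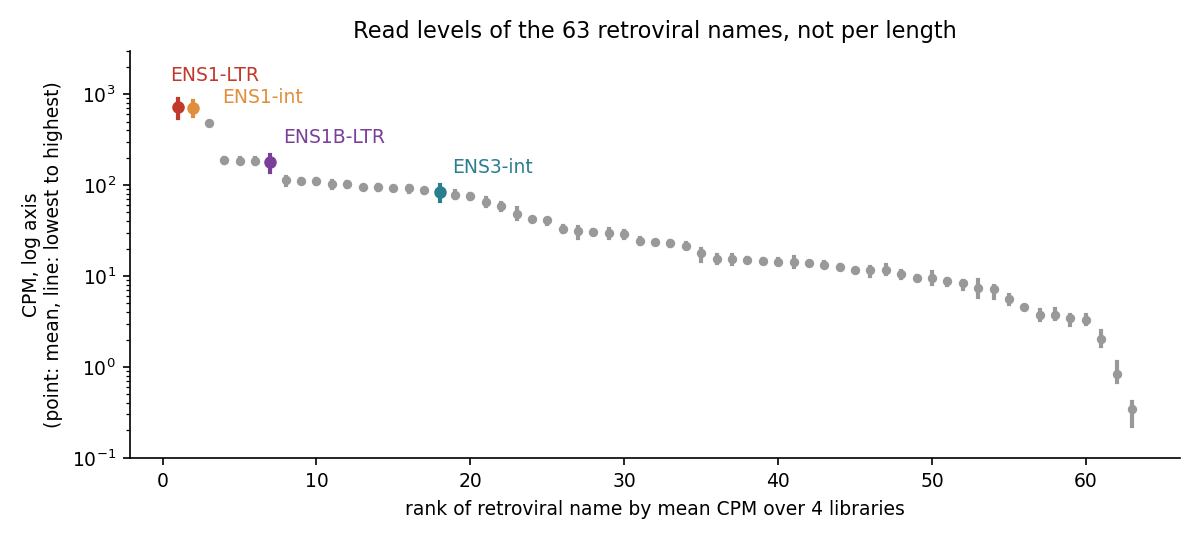
Mean CPM over the 4 libraries (points, logarithmic axis) and lowest to highest library (lines) of the 63 retroviral names in order of mean. ENS1-LTR at 719 CPM and ENS1-int at 706 CPM lead, ENS1B-LTR is in rank 7 and ENS3-int in rank 18.

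The 4 ENS names together made up 41.5% of all retroviral reads in knockout replicate 1 (Wilson 95% interval 41.3 to 41.8%) and 35.1% in knockout replicate 2 (34.9 to 35.3%). They made up 36.3% in control replicate 1 (36.1 to 36.5%) and 31.3% in control replicate 2 (31.1 to 31.5%). The intervals cover counting error only, since reads without molecular identifiers are not independent molecules, and they are far narrower than the distance between libraries of a group. The mean share was 38.3% ± 4.58 in knockout and 33.8% ± 3.54 in control tissue (SD, n = 2 each). The difference of 4.50 percentage points was smaller than the distance between the 2 libraries of either group and did not pass (exact two-sided permutation p = 0.667, where 0.333 is the smallest that 2 against 2 libraries can give). It was 1.26 points without knockout replicate 1 and 1.99 without control replicate 2, and 7.73 without knockout replicate 2 and 7.002 without control replicate 1. ENS1-LTR and ENS1-int alone held 26.5% to 35.2% of the retroviral reads, against 10.1% to 10.7% for GGERV20_I-int, the next name in every library. Of all repeat reads the ENS names took 1.88% to 2.91%, and of those outside simple and low-complexity names 5.24% to 7.77%.

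**Figure D3:**
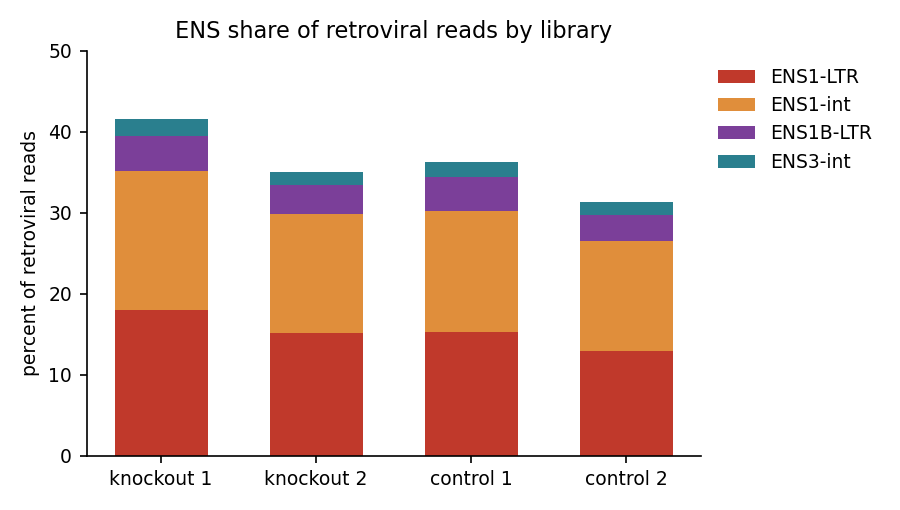
Percent of all retroviral reads taken by each ENS name in each library, stacked. The sum runs from 31.3% in control replicate 2 to 41.5% in knockout replicate 1, and the knockout and control libraries interleave.

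Summed over the 4 names, ENS RNA stood at 2029 and 1646 CPM in knockout and at 1738 and 1338 CPM in control tissue. The means were 1838 ± 270.2 and 1538 ± 283 CPM (SD, n = 2 each), a ratio of 1.19 (exact two-sided permutation p = 0.667). Knockout replicate 1 exceeded knockout replicate 2 by 382 CPM and control replicate 1 exceeded control replicate 2 by 399.9 CPM. Both distances within a group were larger than the 299.5 CPM between the group means. Leaving out control replicate 2 gave a ratio of 1.06, and leaving out knockout replicate 1 gave 1.07. Leaving out knockout replicate 2 or control replicate 1 gave 1.32 or 1.37. Each value is that of a pool of whole folds. A difference in the number of cells with ENS RNA and one in ENS RNA per cell cannot be told apart in it.

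Retroviral reads outside the ENS names differed less, in absolute level, between groups and libraries. They summed to 2854 and 3048 CPM in knockout and to 3048 and 2936 CPM in control tissue. The ratio of the means was 0.986 (exact two-sided permutation p = 1), rising to 1.02 when knockout replicate 1 was left out and to 1.01 when control replicate 1 was. The group means of all retroviral reads differed by 259 CPM, higher in knockout. The ENS names contributed 299.5 CPM to this and the other 59 names -40.6 CPM.

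By name, the difference between groups was largest for ENS1-LTR and smallest for ENS3-int. The knockout mean of ENS1-LTR was 795 ± 116 CPM and its control mean was 642 ± 128 CPM (SD, n = 2 each), and its fitted log2 fold change was 0.31 with an SE of 0.12 (95% interval 0.056 to 0.56). For ENS1-int the means were 764 ± 107 and 648 ± 94.2 CPM, and the fitted log2 fold change was 0.24 with an SE of 0.12 (95% interval -0.0017 to 0.48). ENS1B-LTR averaged 189.9 ± 31.8 against 168 ± 40.7 CPM, with 0.18 and an SE of 0.13 (95% interval -0.087 to 0.45). For ENS3-int the means were 88.4 ± 15.6 and 80.1 ± 19.7 CPM, and the fitted value was 0.14 with an SE of 0.13 (95% interval -0.13 to 0.42).

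None of these passed. In edgeR's quasi-likelihood test with Benjamini-Hochberg adjustment over all 2803 repeat names tested, 0 of the 4 ENS names had an adjusted p under 0.05 (adjusted p = 0.9997 for each), and 0% of all names did. DESeq2 and limma-voom also called 0. At an unadjusted edgeR p under 0.05, 1 ENS name passed, ENS1-LTR, where 1.39% of all names did so in either direction and 0.499%, or 14 names, were higher in knockout. All 4 log2 fold changes were positive, with a median of 0.21, where 48.9% of all tested names were positive and their median was -0.0043. The knockout libraries lay wholly above the control libraries for 0 of the 4 ENS names and for 12.9% of all names, and wholly below for 0 of the 4 and for 12.8% of all names.

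Several of these values depended on which library was left out. Leaving out any library unbalanced the replicate numbers between groups, and each ENS name was higher in both replicate 1 libraries. Whether the replicate number accounts for the changes was not tested. Leaving out knockout replicate 1 or control replicate 2 lowered every ENS log2 fold change, and leaving out either other library raised it. With a replicate block, which keeps all libraries, the log2 fold change was 0.31 for ENS1-LTR and 0.24 for ENS1-int. Without control replicate 1, ENS1-LTR had a log2 fold change of 0.53 and passed (edgeR adjusted p = 0.034), whereas it fell short without control replicate 2, at 0.12 (edgeR adjusted p = 0.999), and without knockout replicate 1, at 0.15 (edgeR adjusted p = 0.9998). It was 0.45 without knockout replicate 2 (edgeR adjusted p = 0.990). ENS1-int ranged from 0.087 without knockout replicate 1 to 0.39 without control replicate 1. ENS1B-LTR turned to -0.0012 without knockout replicate 1 and to -0.048 without control replicate 2, but 0.34 when knockout replicate 2 was left out and 0.45 when control replicate 1 was. ENS3-int was -0.051 and -0.090 in the first 2 of these fits and 0.31 and 0.42 in the others. With the library size taken from the retroviral reads outside ENS, which sets the ENS names directly against the other retroviruses, the log2 fold changes of ENS1-LTR, ENS1-int, ENS1B-LTR and ENS3-int were 0.34, 0.27, 0.21 and 0.17. None passed there either (edgeR adjusted p = 0.9995).

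The ENS names varied more between libraries of a group than most other retroviral names. Knockout replicate 1 exceeded knockout replicate 2 by 0.30 log2 units for ENS1-LTR, 0.29 for ENS1-int, 0.34 for ENS1B-LTR and 0.36 for ENS3-int. Control replicate 1 exceeded control replicate 2 by 0.41, 0.30, 0.50 and 0.51 log2 units in the same order. For each of the 4 names the log2 fold change between groups was smaller than the distance between the control libraries. It was also smaller than the distance between the knockout libraries, except for ENS1-LTR, at 0.308 against 0.297. Between same-numbered libraries, however, knockout lay above control for all 4 names. In log2 units, for numbers 1 and 2, the difference was 0.26 and 0.37 for ENS1-LTR and 0.23 and 0.24 for ENS1-int. It was 0.11 and 0.27 for ENS1B-LTR and 0.079 and 0.22 for ENS3-int. Averaged over the 2 groups, the distance within a group was 0.43 log2 units for ENS3-int, 0.42 for ENS1B-LTR, 0.35 for ENS1-LTR and 0.29 for ENS1-int. These were ranks 1, 2, 3 and 5 among the 61 retroviral names with a mean of at least 1 CPM. The other 57 had a median of 0.14, and 1 of them, GGLTR10B at 0.33, exceeded ENS1-int. This ranking is a description of these 4 libraries and was not tested.

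The test borrows its spread from other names, which matters for these 4. The spread that the model estimated for a name alone, as a quasi-dispersion, was 4.22 for ENS1-LTR, 2.83 for ENS1-int, 5.74 for ENS1B-LTR and 5.60 for ENS3-int, against a median of 0.664 over all names tested. After moderation toward the other names (prior degrees of freedom 27.4, against 2 from a name's own libraries) the values used were 1.001, 0.905, 1.07 and 1.05. The standard errors, intervals and unadjusted p-values of the edgeR fit are therefore based on a smaller spread than these names showed. The exact two-sided permutation p over libraries, which uses no other name, was 0.667 for each of the 4.

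**Figure D4:**
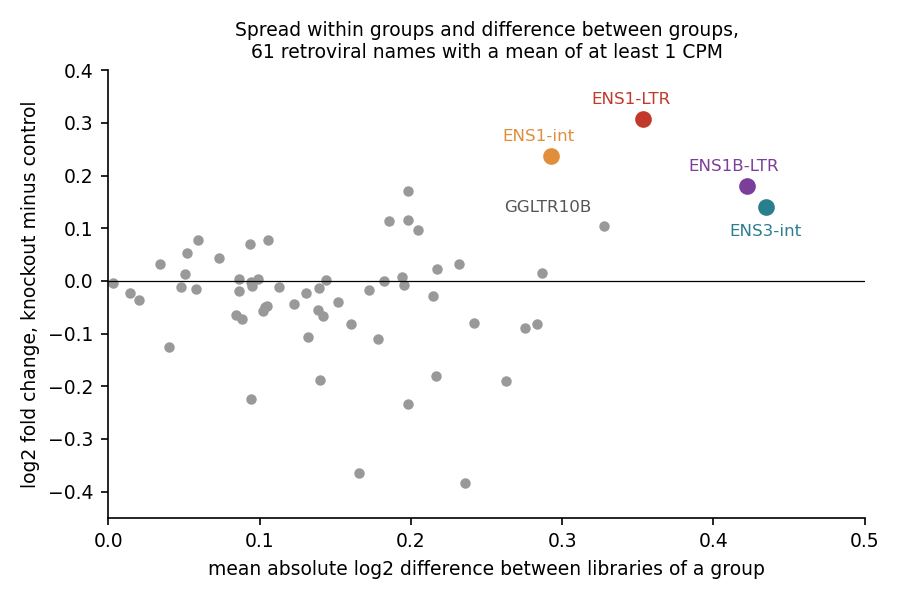
Log2 fold change between groups (vertical axis, knockout minus control) against the mean absolute log2 difference between the 2 libraries of a group (horizontal axis) for the 61 retroviral names with a mean of at least 1 CPM; ENS names are coloured and labelled. The ENS names lie at 0.29 to 0.43 on the horizontal axis, where the other names have a median of 0.14, and at 0.14 to 0.31 on the vertical axis.

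Of the 59 retroviral names outside ENS, the log2 fold change was above 0 for 22 and below 0 for 37, at a median of -0.015. Of the 235 tested names that are neither simple nor low-complexity repeats, 81 were above 0 and 154 below, at a median of -0.035. The edgeR test called 0 of either set. At an unadjusted edgeR p under 0.05 there were 1 of the 59 and 5 of the 235, where 1.39% of all names passed. DESeq2 and limma-voom called 0 of all names. None of the 59 had a log2 fold change above that of ENS1-LTR, where 293 of all 2803 names tested and 10 of the 235 did. The 3 of the 59 above that of ENS3-int were GGERV11_LTR (0.25, SE 0.55), GGLTR3E2 (0.24, SE 0.35) and GGLTR3B3 (0.17, SE 0.20). Their means were only 0.341, 0.840 and 3.69 CPM. Above ENS3-int were also 666 of the 2803 and 33 of the 235. The most abundant of the 59, GGERV20_I-int, had a log2 fold change of 0.054 (SE 0.10), while GGLTR5B had -0.010, GGLTR7-int -0.012, GGERVL-C-int 0.0021 and GGLTR5A -0.11, each with an SE of 0.11.

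The ratio of LTR to internal reads was close to 1 for ENS1 in every library. It was 1.044 and 1.037 in knockout replicates 1 and 2, 1.026 in control replicate 1 and 0.949 in control replicate 2. The knockout libraries both lay above the control libraries, by 0.076 log2 units on average (exact two-sided permutation p = 0.333, the smallest possible). ENS1-LTR took 50.6% of the ENS1-LTR and ENS1-int reads in control replicate 1 (Wilson 95% interval 50.2 to 51.0%) and 50.9% in knockout replicate 2 (50.5 to 51.3%), so these 2 libraries lay within counting error of each other. It took 48.7% in control replicate 2 (48.2 to 49.2%). Without control replicate 2 the difference was 0.021 log2 units, against 0.13 without control replicate 1. With the reads of ENS1B-LTR added to those of ENS1-LTR, the ratio was 1.297 and 1.280 in knockout and 1.301 and 1.188 in control replicates 1 and 2, and the groups overlapped (0.052 log2 units, exact two-sided permutation p = 1).

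In the 5 other families with an LTR name and an internal name that match by stem, the ratio was below 1 in every library. It ran from 0.018 for RSV-LTR to RSV-int, of the Rous sarcoma virus group, to 0.835 for GGERVL18-LTR to GGERVL18-int. Their differences between knockout and control were positive for 2 families and negative for 3. The groups did not overlap for 2 of the 5, both lower in knockout and by more than the ENS1 ratio was higher: RSV by -0.29 and GGERV28 by -0.19 log2 units. Their counting error was larger: its standard error reached 12.4% for RSV and 5.41% for GGERV28, against 0.939% for ENS1. RSV-LTR stood at only 1.70 to 2.45 CPM. LTR names with a further letter or number after the stem were not paired. Among these, GGLTR7A and GGLTR7B had means of 87.8 and 95.9 CPM beside 185 CPM for GGLTR7-int. GGLTR10C1 and GGLTR10C2 had means of 3.30 and 14.8 CPM beside 28.9 CPM for GGLTR10C-int. A ratio near 1 is therefore not shown to be particular to ENS1. As counts are not per length, a ratio can be compared across libraries but not read as copies of LTR per internal part.

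Per ENS1-LTR read, ENS1B-LTR was lower in both knockout libraries, whereas ENS3-int per ENS1-int read overlapped between the groups. The denominators differ, and the contrast turned when both were taken as shares of ENS reads. ENS1B-LTR then overlapped, at 10.5% and 10.2% in knockout and 11.3% and 10.4% in control replicates 1 and 2. ENS3-int was then lower in both knockout libraries, at 4.90% and 4.70% against 5.41% and 4.95%. A difference between the 2 names is therefore not shown. ENS1B-LTR had 0.242 and 0.235 reads per ENS1-LTR read in knockout and 0.268 and 0.252 in control replicates 1 and 2. The groups did not overlap and differed by -0.12 log2 units (exact two-sided permutation p = 0.333), a difference of -0.077 without control replicate 1 and -0.17 without control replicate 2. Such a lack of overlap was also seen for 2 of the 5 families above. ENS3-int had 0.118 and 0.112 reads per ENS1-int read in knockout and 0.132 and 0.114 in control tissue. Here knockout replicate 1 lay above control replicate 2, the difference was -0.086 log2 units (exact two-sided permutation p = 0.667), and it was 0.019 without control replicate 1. Over the 6 permutation tests of ENS share, sums and ratios, the Benjamini-Hochberg adjusted p was 0.8 for 5 and 1 for the retroviral reads outside ENS. With 2 libraries per group no such test can pass.

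**Figure D5:**
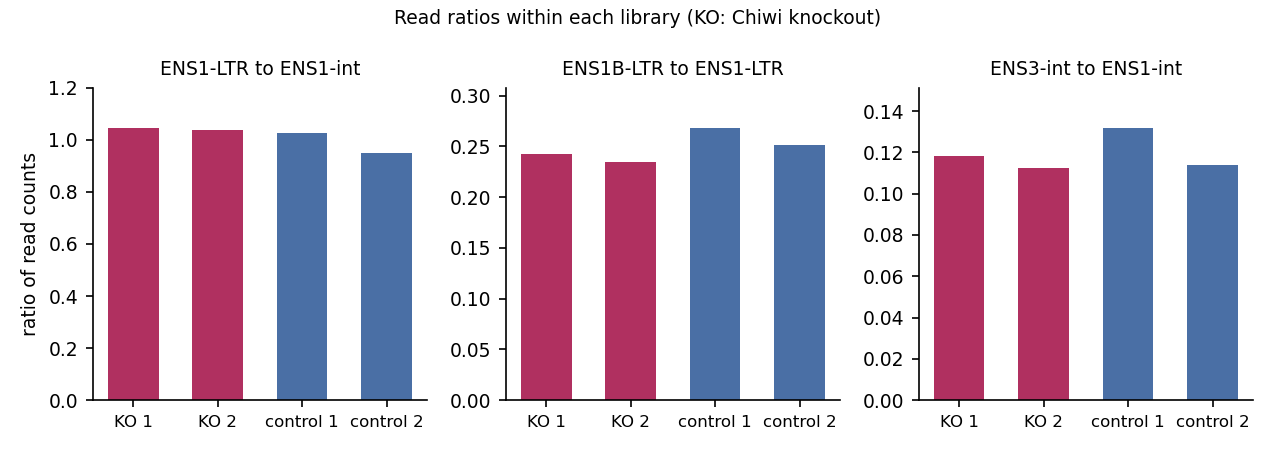
Ratios of raw read counts within each library (vertical axes from 0): ENS1-LTR to ENS1-int, ENS1B-LTR to ENS1-LTR and ENS3-int to ENS1-int; KO is Chiwi knockout. The first ratio lies between 0.949 and 1.044, lowest in control replicate 2, and the second is at 0.242 and 0.235 in the knockout libraries, below the 0.268 and 0.252 of the control libraries.

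The composition of ENS reads varied little beside their level. ENS1-LTR made up 43.2% and 43.3% of them in knockout and 42.2% and 41.2% in control replicates 1 and 2, and ENS1-int made up 41.1% to 43.4%. ENS1B-LTR held 10.2% to 11.3% and ENS3-int 4.70% to 5.41%. Control replicate 1 had the highest share of both ENS1B-LTR and ENS3-int.

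Likeness of profile was measured as the root mean square distance between log2 CPM values over the 4 libraries, each name centred on its own mean, among 189 names that are neither simple nor low-complexity repeats and have at least 1 CPM. The nearest name to ENS1-LTR was ENS1-int, at 0.055 log2 units, and ENS1B-LTR and ENS3-int were nearest to each other, at 0.021. Outside ENS, the 3 names most like ENS1-LTR were GGLTR10B at 0.11, GGLTR12B at 0.13 and GGLTR10C-int at 0.15 log2 units, where the median over all names was 0.29. The same 3 were nearest to ENS1-int, at 0.070, 0.082 and 0.11. The ENS names were thus not always nearest to each other. ENS1B-LTR at 0.078 and ENS3-int at 0.090 were farther from ENS1-int than GGLTR10B was. To ENS1-LTR, ENS1B-LTR at 0.071 and ENS3-int at 0.091 were nearer than any name outside ENS.

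The 3 names outside ENS were far less abundant. GGLTR10B stood at 11.1 and 8.76 CPM in knockout and 10.2 and 8.21 CPM in control replicates 1 and 2. GGLTR12B stood at 16.9 and 15.01 against 15.8 and 13.7 CPM, and GGLTR10C-int at 31.4 and 27.0 against 31.0 and 26.2 CPM. They were the 3 of 57 retroviral names outside ENS that put the libraries in the order of the ENS names. Having been picked for a like profile, they give no separate support for it. Both replicate 1 libraries lay above both replicate 2 libraries for 11 of the 57, among them EAVHP_I-int, the internal part of an endogenous avian retrovirus. The share of all repeat names with either pattern was not counted, so neither the 3 nor the 11 are read as a trait of retroviruses. The likeness rests on 4 libraries and is a description.

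Some other reads also differed between these libraries. The ribosomal names LSU-rRNA_Hsa and SSU-rRNA_Hsa, of the large and small ribosomal subunit, were at 5846 and 5819 CPM and at 2581 and 2735 CPM in the knockout libraries. In the control libraries they were at 4599 and 5136 CPM and at 2099 and 2422 CPM. Both were thus higher in knockout without overlap, as were 12.9% of all names tested, and neither passed (edgeR adjusted p = 0.9997 for each). GGXHOI, a repeat of the W chromosome, which in birds only females carry, was at 14.95 and 37.6 CPM in knockout and at 17.0 and 22.8 CPM in control replicates 1 and 2. It was lower in both replicate 1 libraries, in which the ENS names were higher. The part of ribosomal RNA or of the sex of the pooled embryos in the ENS values was not tested. The level of the targeted gene, of ERNI as a gene and of tissue markers was not analysed here, because 0 of the 24356 gene IDs could be paired with a name.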

How the data were processed

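The authors deposited raw read counts per Ensembl gene ID and per repeat name for each library, without headers. The submitters' processing notes list Bowtie2, featureCounts, DESeq2 and the build galGal6. How strand and reads matching several copies were handled is not given in the sources used here. Sequence common to ENS1-LTR and ENS1B-LTR could have its reads split or dropped, and a repeat count may hold reads of genes.

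From these counts, CPM was computed with the summed reads of the same library's gene table as library size, without normalization factors. The filter on low counts was filterByExpr with a minimum count of 10 and a minimum total of 15. Knockout and control were compared with edgeR 4.0.16 (glmQLFit, glmQLFTest, group only) in R 4.3.3, adjusted by Benjamini-Hochberg over all 2803 names tested, with a threshold of 0.05. SE is the log2 fold change over the square root of F. Shares, sums and ratios were compared by exact permutation tests. The edgeR step was tested on simulated data. Libraries of a group differed beyond sampling noise (chi-square per degree of freedom 16.9 for knockout and 17.6 for control, over genes), so none was merged.

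Alternatives were DESeq2 1.42.0, limma-voom (limma 3.58.1), other library sizes, filters and name definitions, a replicate block, robust=TRUE, and leaving out each library. Named outside ENS by rule were the 5 most abundant retroviral names, the neighbours of each member in the order of mean CPM, and the 3 nearest profiles to ENS1-LTR and to ENS1-int. EAVHP_I-int, GGERV11_LTR, GGLTR3E2, GGLTR3B3, GGLTR7B, GGLTR10C1, GGLTR10C2, GGXHOI, the ribosomal names and the matched LTR families were chosen after their values were seen. So was the ranking by spread within groups. The members and lists were chosen with earlier results of these data known. Gene names could not be paired with IDs, so the planned test of the ENS-1 gene and the marker lists were left out.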

Additional observations from a re-analysis of the deposited data

How the results depend on the processing

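The number of ENS names called was 0 in 13 of 14 alternatives and 1, ENS1-LTR, without control replicate 1, so that fits with a library left out gave 0 to 1. Those fits called 0 to 2 of all repeat names, and the others 0. A library left alone in its group is taken there to vary as the other group does. The log2 fold changes of ENS1-LTR (0.12 to 0.53) and ENS1-int (0.087 to 0.39) kept their sign in all 14 alternatives. ENS1B-LTR reached 0.45 and ENS3-int 0.42 without control replicate 1, but ENS1B-LTR turned to -0.0012 without knockout replicate 1 and to -0.048 without control replicate 2, and ENS3-int to -0.051 and -0.090. The ratio of retroviral reads outside ENS ranged from 0.954 to 1.02 and the log2 difference of ENS3-int to ENS1-int from -0.19 to 0.019 over the fits that leave out a library, and both turned. The ENS share, the ENS sum and both ENS1-LTR ratios kept their direction in all alternatives run, though leaving out a library moved the share difference from 4.50 to between 1.26 and 7.73 points. The cause of these changes was not tested. With a replicate block, edgeR called 0 ENS names, and the log2 fold changes were 0.31, 0.24, 0.19 and 0.15 for ENS1-LTR, ENS1-int, ENS1B-LTR and ENS3-int. Between same-numbered libraries the ENS sum was 1.17-fold and 1.23-fold as high in knockout and the share 5.23 and 3.76 points higher, for numbers 1 and 2. Whether a number marks shared embryos is not stated. Deviations of same-numbered libraries correlated at 0.342 for genes and 0.167 for repeats, and a single such correlation does not settle the pairing. The alternative for the ENS-1 gene was not run, since no gene ID could be named.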
